A study of Homo sapiens with 36 samples.

Results

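For every gene, the change from day 3 to day 7 of neuronal induction in RAI1 KO cells was compared with the change over the same days in WT cells. This difference of changes, the KO-WT interaction, was formed from 16 of the 36 libraries of the series, namely 4 replicates each of WT day 3, WT day 7, KO day 3 and KO day 7, taken by sample title. Of the 62710 genes in the table, 22749 passed the filter on low counts and were tested. All 4 groups were derived from H9, a human embryonic stem cell line, and all were driven towards neurons by a doxycycline-inducible NGN2, the protein encoded by NEUROG2. The stem cells were kept in mTeSR Plus on Geltrex, and the induced cells in Neurobasal-A with B27, GlutaMAX, the growth factors NT3 and GDNF, and CultureOne, with doxycycline during induction. The groups used differ in genotype, labelled WT or RAI1 Knockout, and in the day of harvest, and heterozygous cells and day 0 were not used here. The labels call the replicates biological without saying whether they came from separate cultures, and they do not say how many clones stand behind the KO label, so p-values measure the spread between these samples, which may be technical. All libraries carried the same batch label.

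RAI1 encodes a nuclear protein that binds nucleosomes and is best known because loss of a single copy causes Smith-Magenis syndrome. NGN2 is a proneural basic helix-loop-helix factor: it pairs with E proteins on E-box sequences, switches on later factors such as the NEUROD family and Delta ligands, and takes dividing cells out of the cell cycle into a glutamatergic neuronal fate. In such a course early proneural genes are normally transient while pan-neuronal genes accumulate, so a difference of changes can come from either genotype moving, from both, or from the same course run at another time.

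RAI1 (ENSG00000108557, chromosome 17, 17681473 to 17811453; GENCODE 29 on GRCh38) was looked at before anything else, as the targeted gene. In CPM (counts scaled by TMM to a library of 1e6) it measured 75.5, 63.5, 45.1 and 39.3 in WT replicates 1 to 4 at day 3 and 35.2, 46.5, 45.5 and 70.5 at day 7. In KO it measured 72.2, 102, 62.2 and 35.4 at day 3 and 86.4, 96.3, 89.9 and 60.5 at day 7. The KO mean was thus not below the WT mean on either day (67.9 against 55.9 CPM at day 3, 83.3 against 49.4 CPM at day 7). The groups overlapped on both days. Counts over the whole gene do not show whether the transcripts left encode protein, so directions below refer to the libraries labelled KO. The KO-WT difference was 0.28 (adjusted p = 0.49) at day 3 and 0.75 (adjusted p = 0.0475), higher in KO, at day 7. Without WT day 7 replicate 1 the day 7 difference was 0.57. An exact permutation test of the CPM at day 7 gave p = 0.0571, or 0.0762 after adjustment over 8 tests. The interaction of RAI1 was 0.47 on the log2 scale (SE 0.4, edgeR quasi-likelihood test with Benjamini-Hochberg adjustment, adjusted p = 0.473). Genes of proteins reported to bind RAI1 likewise had no call, with TCF20 at 0.44 (adjusted p = 0.295) and PHF14 at -0.02 (adjusted p = 0.975).

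NEUROG2 (chromosome 4, 112513516 to 112516172), the gene of the inducer, was examined after its values were seen. Its counts can come from the transgene or the endogenous locus, which cannot be told apart here. It measured 22344, 19402, 19116 and 24127 CPM in WT at day 3 and 8180, 7451, 7815 and 10295 CPM in KO at day 3. At day 7 it measured 88.3, 44.9, 48.7 and 58.9 CPM in WT and 30, 20.9, 19.3 and 25.7 CPM in KO. Every KO library was below every WT library on both days, and the log2 difference was -1.33 (SE 0.23) at day 3 and -1.33 (SE 0.23) at day 7 (adjusted p = 0.000396 and 0.000262). It fell by 8.46 on the log2 scale in each genotype, so the inducer showed an interaction of 0.00 (SE 0.33, adjusted p = 0.998).

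The 16 libraries held about 33258000 to 51337000 counts, and KO and WT totals overlapped on both days. In a bulk library, fewer cells of a type and less RNA per cell cannot be told apart. WT day 7 replicate 1 stood apart from its group: its 42 replication and mitosis genes summed to 897 CPM against 470 to 566 CPM in the other WT day 7 libraries, and its 22 pan-neuronal genes to 9511 CPM against 15516 to 19265 CPM. Across groups the replication and mitosis sum was 5751 ± 1074 CPM in WT and 2772 ± 870 CPM in KO at day 3 (SD, n = 4 each), and 613 ± 194 and 364 ± 18.9 CPM at day 7. The pan-neuronal sum was 2862 ± 253 CPM in WT and 11241 ± 1846 CPM in KO at day 3, and 15604 ± 4354 and 30904 ± 4065 CPM at day 7. In each of these 4 comparisons no KO library overlapped a WT library, which gives a two-sided p of 0.0286 by exact permutation, as low as 4 libraries against 4 can go, and 0.0571 after adjustment over the 8 tests of this kind. Transcripts of 5 small structural RNAs took 4.92%, 3.54%, 14.9% and 18.8% of the counts in KO day 3 replicates 1 to 4. In WT day 3 replicates 1 to 4 they took 10.4%, 8.99%, 19.6% and 18.1%, so replicates 3 and 4 were the higher in both genotypes. At day 7 they took 9.9% to 15.8% in KO and 14.5% to 25.6% in WT (exact permutation p = 0.0571, adjusted 0.0762). Their part in the results was not tested directly; a fit with that share as a covariate called 5462 genes.

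**Figure D1:**
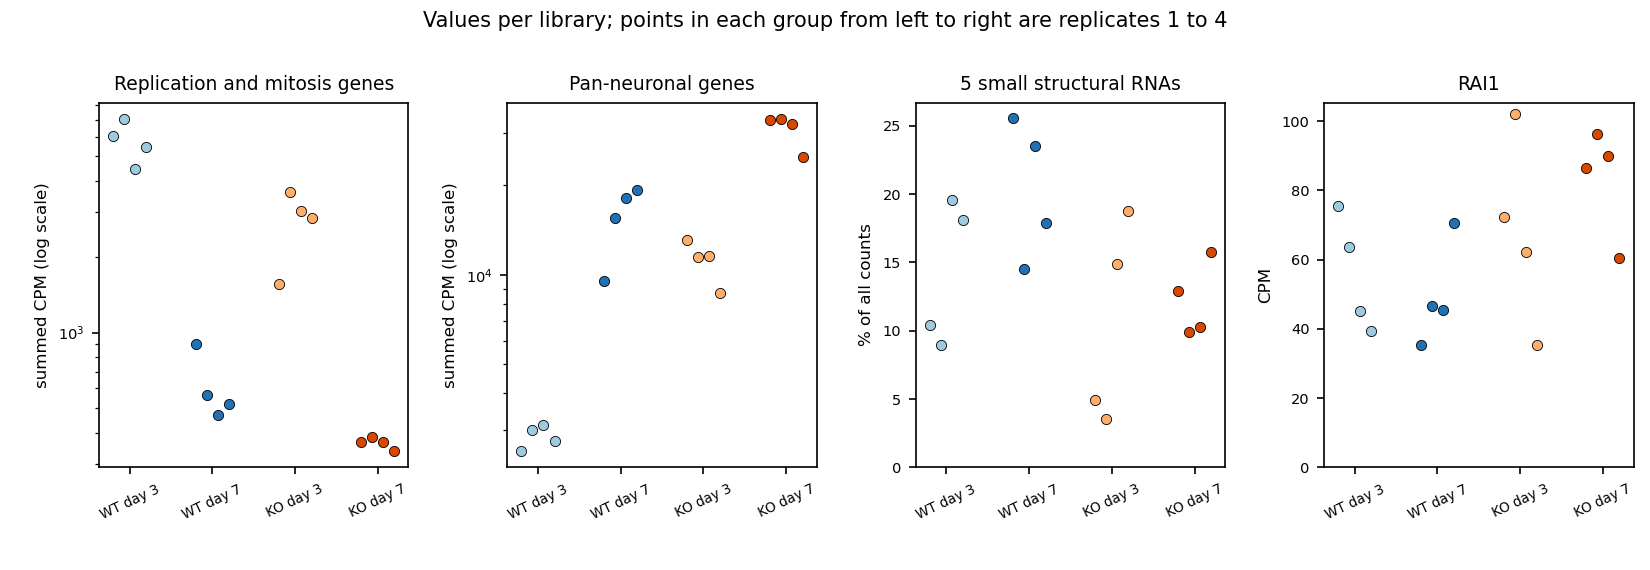
Values per library in the 4 groups: summed CPM of 42 replication and mitosis genes and of 22 pan-neuronal genes (log axes), the share of all counts in 5 small structural RNAs (%), and RAI1 CPM. Each point is a library, replicates 1 to 4 from left to right; WT day 7 replicate 1 has the highest replication sum (897 CPM) and the lowest pan-neuronal sum (9511 CPM) of its group, and the RAI1 values of KO and WT overlap.

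Of the 22749 genes tested, 4243 (18.7%) had an interaction call at an adjusted p under 0.05. The interaction was above 0, meaning that KO moved up relative to WT, for 1909 genes (8.39%), and below 0 for 2334 (10.3%). The median over all genes tested was -0.04 on the log2 scale, so the calls were spread to both sides. On log2(TPM + 1) with limma, 62.6% of the calls were above 0, against 45% here. The interaction was at least 1 on the log2 scale in size for 3490 of the called genes and at least 2 for 1827. Without WT day 7 replicate 1 the count was 4296 (1755 above 0 and 2541 below), and 3779 of the 4243 genes were called again, all with the same sign.

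The calls were sorted by the KO-WT differences of the same fit at each end of the interval, which is a description and no further test. KO and WT differed in 6239 genes (27.4%) at day 3 and in 8409 (37%) at day 7. In 1271 interaction calls the day 3 difference was smaller or no longer called at day 7, here termed catch-up: 810 started higher in KO and 461 started lower. In 2192 calls the day 7 difference was the larger, here termed divergence: 1107 ended higher in KO and 1085 ended lower. A further 593 crossed, with a called difference of opposite sign on the 2 days, 371 of them ending lower in KO and 222 ending higher, and 187 fell in none of these classes. Opening gaps therefore outnumbered closing ones. Without WT day 7 replicate 1 there were 1498 catch-up, 1951 divergence and 646 crossing calls.

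**Figure D2:**
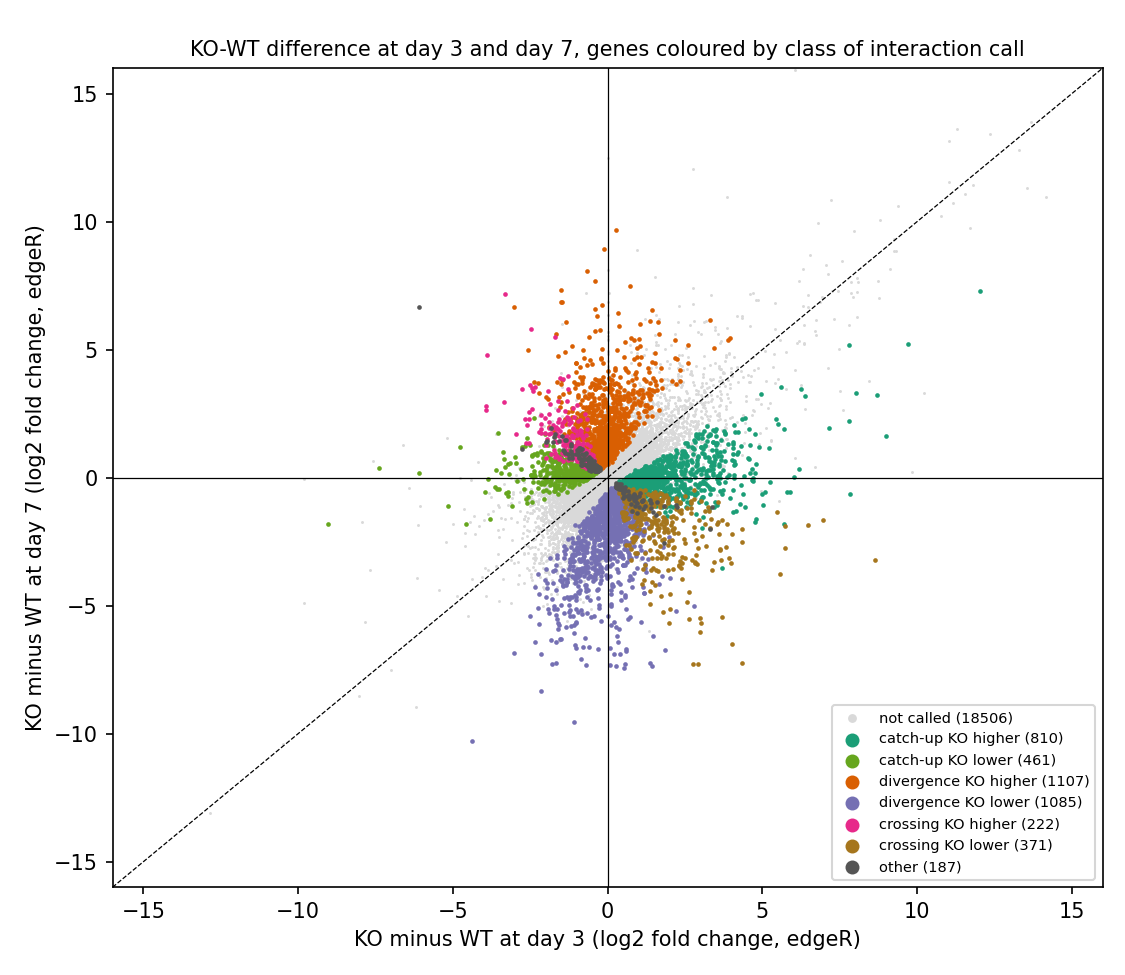
KO minus WT at day 3 (x axis) against KO minus WT at day 7 (y axis), both log2 fold changes, for the 22749 genes tested; the axes use different libraries. Colours give the class of interaction call and the dashed line marks equal differences; the catch-up genes lie along the horizontal axis and the divergence genes along the vertical axis, with 1107 ending higher in KO and 1085 ending lower.

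Which genotype moved differed between the classes. From day 3 to day 7, 9615 genes (42.3%) changed in WT and 10226 (45%) in KO. Of the 810 catch-up genes that began higher in KO, 350 rose in WT with no call in KO, 219 rose in both, 60 rose in WT and fell in KO, and 144 fell in KO with no call in WT. Most of these gaps thus closed with a rise in WT. Of the 461 catch-up genes that began lower in KO, 210 fell in WT with no call in KO and 81 rose in KO with no call in WT. Divergence followed KO more often: of the 1107 genes that ended higher in KO, 572 rose in KO with no call in WT and 225 rose in both, and of the 1085 that ended lower, 494 fell in KO with no call in WT and 285 fell in both. Among the 371 crossing genes that ended lower in KO, 163 rose in WT and fell in KO. These classes are on the log2 scale: in CPM the gap was wider at day 7 for 151 of the 810 catch-up genes that began higher in KO, and narrower at day 7 for 193 of the 1085 divergence genes that ended lower.

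Among genes that began higher in KO and were caught up, the largest interactions included OPRK1, the kappa opioid receptor, BMPER, a secreted BMP-binding regulator, and CNTN6, a neuronal cell adhesion molecule. OPRK1 measured 0.0703, 0.107, 0.023 and 0.0496 CPM in WT at day 3 and 1.71, 7.31, 6.07 and 4.99 CPM at day 7. In KO it measured 26, 37.1, 28.6 and 44.7 CPM at day 3 and 4, 21.6, 18.5 and 18.2 CPM at day 7. All KO libraries were far above WT at day 3 and the groups overlapped at day 7. WT rose (6.24, adjusted p = 6.38e-07) while KO fell (-1.13, adjusted p = 0.035), and the interaction was -7.37 (SE 0.78, adjusted p = 4.62e-06). BMPER measured 0.0744 to 0.184 CPM in WT at day 3 and 7.74 to 12.7 CPM at day 7, against 2.61 to 13.6 and 3.13 to 13.7 CPM in KO. WT alone moved, into the range KO already held, and the interaction was -6.46 (SE 0.79, adjusted p = 1.9e-05). CNTN6 fell in KO from 9.27, 19.3, 30.3 and 9.73 CPM to 1.61, 1.93, 2.66 and 2.21 CPM, while WT rose from a mean of 0.505 to 3.07 CPM, giving -5.63 (SE 0.82, adjusted p = 0.000108). The KO and WT ranges of CNTN6 overlapped at day 7. NTSR1, a neurotensin receptor, had an interaction of -6.43 (SE 1.1), with WT at 0.137 ± 0.0829 CPM at day 3 and 8.17 ± 4.15 CPM at day 7 and KO at 3.79 ± 1.93 and 2.68 ± 2.94 CPM. SUPT20HL2, an X-linked processed pseudogene whose reads may be shared with near-identical copies, had -6.1 (SE 0.67). Left-out libraries moved BMPER to -7.17 (KO day 7 replicate 1), NTSR1 to -7.56 (KO day 7 replicate 4) and SUPT20HL2 to -6.73 (WT day 3 replicate 3).

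Among genes that began lower in KO and were caught up, 30 of the 461 both fell in WT and rose in KO. One of these, BMP3 (chromosome 4, 81030965 to 81057531), a secreted protein of the BMP family, measured 380, 151, 189 and 91.8 CPM in WT at day 3 and 46.6, 9.19, 28.3 and 18.4 CPM at day 7. In KO it rose from 0.542, 0.288, 0.265 and 0.439 CPM to 7.67, 11.4, 5.26 and 5.16 CPM. The ranges, wholly apart at day 3, overlapped at day 7, and the interaction was 7.24 (SE 0.72, adjusted p = 2.8e-06). CNTN4, an adhesion molecule of the same family as CNTN6, behaved otherwise: it showed no call in WT (64.6, 97.5, 80 and 58.7 CPM at day 3; 31, 92, 98 and 108 CPM at day 7) and rose in KO from 10.3, 10.2, 7.93 and 3.91 CPM to 131, 124, 113 and 116 CPM. All KO libraries lay below WT at day 3 and above WT at day 7, although the day 7 difference (0.55) had an adjusted p of 0.181, and the interaction was 3.77 (SE 0.46, adjusted p = 2.01e-05). RARRES2, which encodes the chemoattractant chemerin, fell in WT from 2.46, 2.33, 5.58 and 10.6 CPM to between 0.0882 and 0.304 CPM, with no called change in KO (interaction 5.3, SE 0.97). RAB37, a small GTPase of secretory vesicles, had an interaction of 3.91 (SE 0.87) and TRIM14, an adaptor of innate immune signalling, 3.52 (SE 0.65). Without WT day 3 replicate 4 RARRES2 was 4.65 and RAB37 3.21, and without KO day 3 replicate 4 RARRES2 was 6.55.

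The largest openings towards KO were genes that were low in all groups except KO day 7. KITLG (chromosome 12, 88492793 to 88580851), the ligand of the KIT receptor, measured 3.62, 6.11, 4.25 and 4.44 CPM in WT at day 3 and 0.398, 1.07, 0.966 and 1.32 CPM at day 7. KO held 1.7, 6.41, 4.88 and 3.31 CPM at day 3 and 169, 120, 92.9 and 31.7 CPM at day 7. The groups overlapped at day 3 and stood wholly apart at day 7, with an interaction of 6.94 (SE 0.67, adjusted p = 2e-06). GRIK1 (chromosome 21, 29536933 to 29940033), a kainate receptor subunit, rose in KO from 0.185 to 0.791 CPM up to 271, 211, 255 and 70.1 CPM, and in WT from 0.0744 to 0.492 CPM up to 0.484, 3.42, 3.62 and 1.87 CPM. Its interaction was 6.09 (SE 0.87, adjusted p = 8.94e-05). SEMA3E, a secreted guidance cue of the semaphorin family, measured 47.1, 18.3, 37.2 and 4.47 CPM in KO at day 7 and at most 0.902 CPM in any library of the other groups (interaction 6.75, SE 0.93). KO day 7 replicate 4 was the lowest of its group for KITLG, GRIK1 and SEMA3E and still above every WT library. IRS4, an X-linked adaptor of insulin receptor signalling, measured 47.5, 29.5, 38.3 and 14.1 CPM in KO at day 7 and at most 0.248 CPM elsewhere (interaction 8.75, SE 1.45, adjusted p = 0.000364); without WT day 3 replicate 4 it was 6.65 with an adjusted p of 0.0659, and without KO day 3 replicate 4 it was 9.44. ALPK1, a kinase that senses a bacterial sugar, had an interaction of 6.16 (SE 0.63). GRIK1 overlaps other annotated genes, and the use of strand in the counting is not given in the sources used here, so reads of overlapping genes cannot be told apart.

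The largest openings away from KO were genes with no called difference at day 3 that fell in KO by day 7. FGFRL1 (chromosome 4, 1009936 to 1026897), a receptor-like protein that binds FGF but lacks a kinase domain, measured 56.4, 42, 33.9 and 40.2 CPM in WT at day 3 and 47.3, 24.1, 22 and 35.7 CPM at day 7. In KO it measured 43, 56.7, 52.9 and 58.2 CPM at day 3 and 0.604, 0.425, 0.379 and 0.834 CPM at day 7. Each KO day 7 library was below every other library of the set, and the interaction was -6.14 (SE 0.38, adjusted p = 5.21e-08). RYR1 (chromosome 19, 38433699 to 38587564), a calcium release channel of internal stores, measured 416, 209, 331 and 232 CPM in WT at day 3, 675, 346, 273 and 308 CPM in WT at day 7, 796, 375, 341 and 441 CPM in KO at day 3 and 10.6, 9.51, 7.97 and 8.26 CPM in KO at day 7. KO fell by 5.75 on the log2 scale with no called change in WT, and the interaction was -6.18 (SE 0.47, adjusted p = 1.81e-07). JPH2, which tethers such stores to the plasma membrane, rose in WT from 2.64 ± 0.951 to 9.75 ± 1.94 CPM and fell in KO from 3.44 ± 0.747 to 0.16 ± 0.0636 CPM (interaction -6.28, SE 0.47). Both genes thus fell in KO and did not fall in WT. CCDC69, a coiled-coil protein gene, measured 27.9, 7.65, 12.3 and 7.72 CPM in WT at day 7 and 0.176, 0.0751, 0.19 and 0.0894 CPM in KO at day 7 (interaction -7.28, SE 0.61). DBX1, a homeobox factor of ventral progenitors, measured 11.3, 11.2, 8.03 and 11.2 CPM in WT at day 7 and 0.302, 0.15, 0.244 and 0.119 CPM in KO at day 7 (interaction -6.74, SE 0.74).

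Crossing genes changed which genotype was higher. ADAMTS5 (chromosome 21, 26917912 to 26966513), a secreted protease of the extracellular matrix, rose in WT from 0.176, 0.256, 0.391 and 0.198 CPM to 14.6, 25.2, 16.6 and 18.3 CPM. In KO it fell from 26.8, 6.89, 8.91 and 6.38 CPM to 2.54, 1.03, 0.949 and 0.954 CPM. No KO library overlapped a WT library on either day, in opposite orders, and the interaction was -9.34 (SE 0.71, adjusted p = 1.79e-07). LRRC53, a leucine-rich repeat gene, had -8.68 (SE 1.19), and TBC1D3G -10.03 (SE 0.96), though the latter belongs to a family of near-identical copies between which reads could be split. Without KO day 7 replicate 3 TBC1D3G was -13.34, without KO day 3 replicate 1 ADAMTS5 was -8.62, and LRRC53 ran from -9.56 without KO day 7 replicate 1 (and nearly so without WT day 3 replicate 2) to -7.71 without WT day 7 replicate 2. In the other direction, TMTC1, an endoplasmic reticulum mannosyltransferase, fell in WT from 17.7, 18.6, 12.1 and 15.5 CPM to 1.99, 4.36, 4.83 and 2.85 CPM and rose in KO from 2.96, 6.17, 4.48 and 8.41 CPM to 58.3, 59.8, 57.8 and 34.4 CPM, an interaction of 5.44 (SE 0.45, adjusted p = 3.99e-07). C3orf52 measured at most 1.79 CPM in the WT libraries and 0.329 CPM in KO at day 3, and 53.9, 72.3, 54.3 and 46 CPM in KO at day 7 (interaction 7.19, SE 0.62). MTUS1, a microtubule-associated protein, had 5.26 (SE 0.54).

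For 222 called genes at least 1 group was at the floor, with 3 counts or fewer in each of its libraries, and their fitted values are no bounds. OPCML, a cell adhesion molecule, measured 349, 191, 246 and 110 CPM in KO at day 7, at least 3216-fold higher than the floor of 3 counts per library that KO held at day 3, and 1.54, 14.6, 8.33 and 3.26 CPM in WT at day 7. SLC24A4, a sodium, potassium and calcium exchanger, measured 49.5, 24.5, 29.3 and 9.15 CPM in KO at day 7, at least 404-fold above the floor, and at most 0.0689 CPM elsewhere. At the other end, the histone gene H3C8 measured 24.7, 48.5, 204 and 206 CPM in KO at day 3 and was at the floor in KO at day 7, at least 1504-fold lower, while WT fell from 404 to 811 CPM down to 2.68 to 29.4 CPM.

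**Figure D3:**
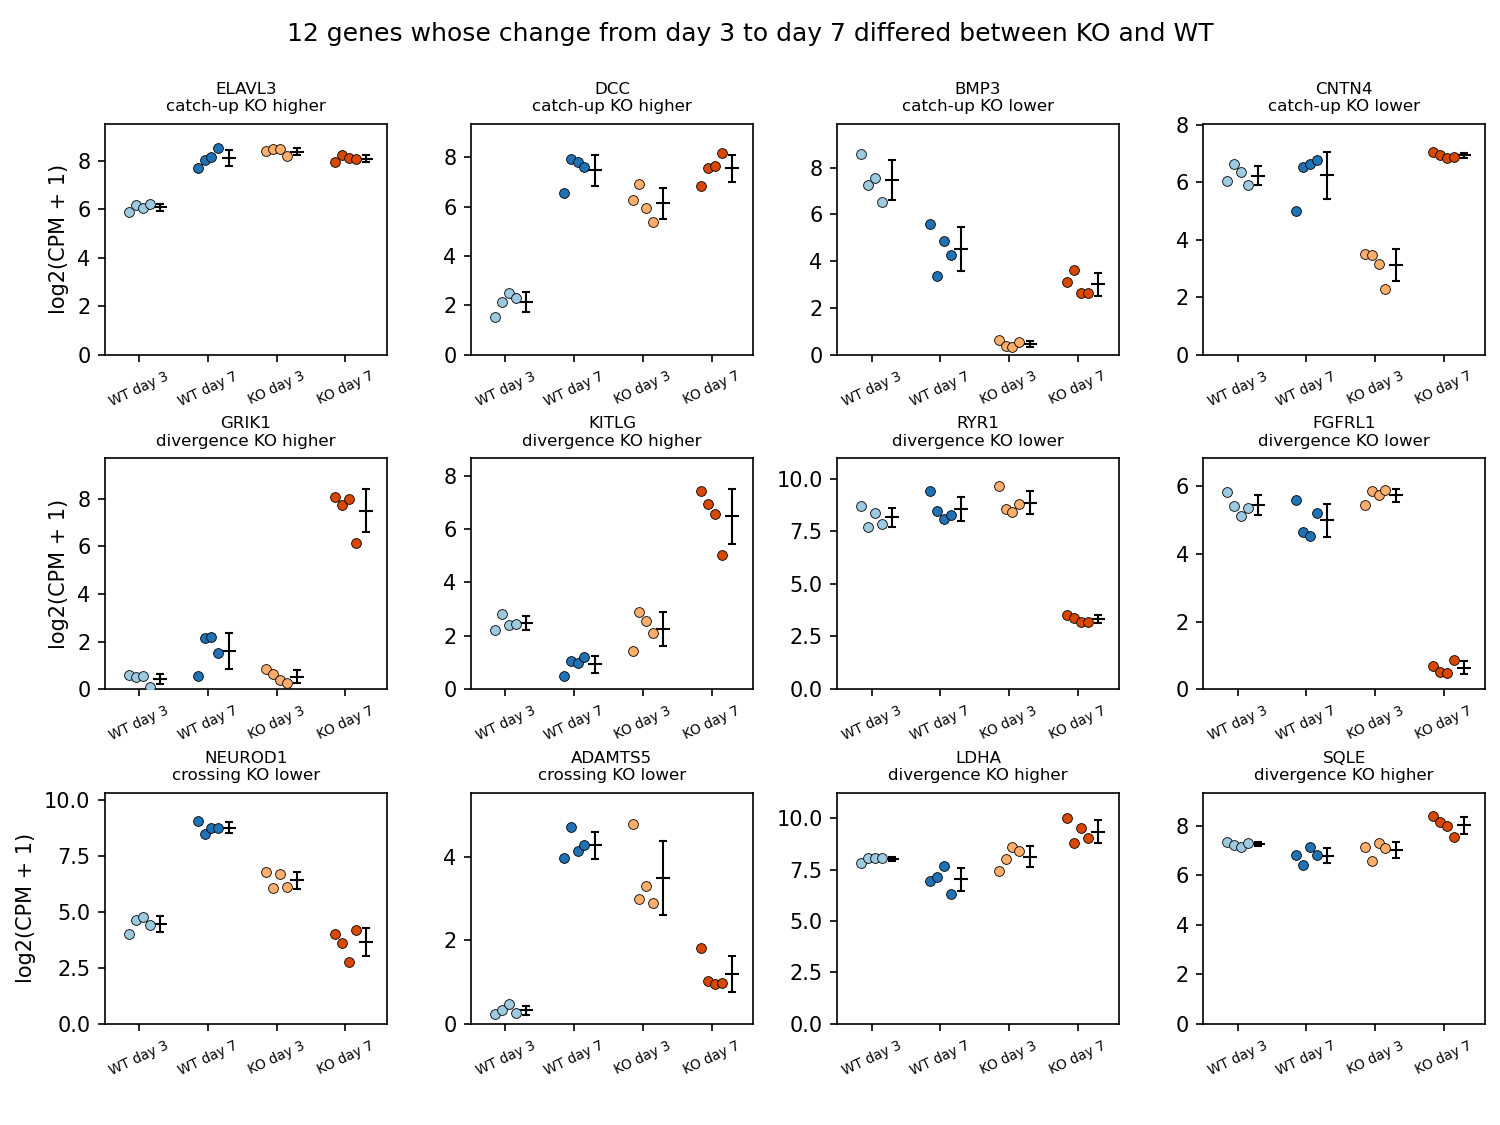
log2(CPM + 1) of 12 genes in the 4 groups; each point is a library, and the bar beside them gives the mean and SD over the 4 replicates. ELAVL3 and DCC show WT rising to the KO level, and BMP3 shows a gap that closed from below. The KO libraries of CNTN4 lie below WT at day 3 and above it at day 7, where the difference was not called. GRIK1, KITLG, RYR1 and FGFRL1 show KO day 7 far from the other groups, and NEUROD1 and ADAMTS5 swap order between the days.

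The proneural list, 21 tested genes of NGN2, other proneural factors and their early targets, had a call in 85.7% of its tested members, against 18.7% of all genes. Of the 21, 16 had an interaction below 0 and 2 above 0 (against 10.3% and 8.39% of all genes), and the median was -2.70 against -0.04 over all genes. The median KO-WT difference of the members was 2.41 at day 3 and -0.65 at day 7. NEUROD1 (chromosome 2, 181673088 to 181680876), a basic helix-loop-helix factor acting after NGN2, measured 14.9, 23.8, 26.4 and 20 CPM in WT at day 3 and 528, 348, 419 and 430 CPM at day 7. In KO it measured 109, 65.5, 101 and 68.3 CPM at day 3 and 14.8, 11.2, 5.83 and 17.4 CPM at day 7. Every KO library was above WT at day 3 and below it at day 7, and the interaction was -7.14 (SE 0.43, adjusted p = 3.69e-08). NEUROD2, a related factor, fell in KO from 13.5, 8.82, 9.73 and 4.99 CPM to 0.277, 0.25, 0.352 and 0.685 CPM and rose in WT from 1.24 ± 0.673 to 4.06 ± 0.922 CPM (interaction -6.27, SE 0.6). NEUROG1, the closest relative of NEUROG2, rose in WT from 0.158 to 0.62 CPM up to 29.2, 40.9, 26.5 and 61.5 CPM and showed no called change in KO, at 0.994 to 2.78 CPM and then 1.46 to 7.6 CPM (interaction -5.74, SE 0.68). INSM1, a zinc finger factor of newborn neurons, rose in WT from 38 ± 11.1 to 194 ± 46 CPM and fell in KO from 249 ± 24.5 to 74.1 ± 30.9 CPM (interaction -4.1, SE 0.38). These 4 genes all crossed, and 7 of the 18 called members did so in all.

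The promoters of NEUROD1 and NEUROD2, with that of the glutamate transporter SLC17A6 for comparison, are shown because these genes lie downstream of a factor that binds E-boxes. Each run is RefSeq sequence on GRCh38.p14, 5' to 3' on the gene's strand, around the start listed. Capitals mark the E-boxes CAGATG and CAGCTG on either strand, and no stretch of bases can be both.
NEUROD1, chr2:181680468-181680767, minus strand: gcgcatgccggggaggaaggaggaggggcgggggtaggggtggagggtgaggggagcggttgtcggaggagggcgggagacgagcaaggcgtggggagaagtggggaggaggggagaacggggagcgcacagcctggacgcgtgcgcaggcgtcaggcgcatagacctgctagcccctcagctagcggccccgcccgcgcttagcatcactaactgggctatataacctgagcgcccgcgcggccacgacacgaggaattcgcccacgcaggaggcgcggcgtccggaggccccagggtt
NEUROD2, chr17:39607871-39608170, minus strand: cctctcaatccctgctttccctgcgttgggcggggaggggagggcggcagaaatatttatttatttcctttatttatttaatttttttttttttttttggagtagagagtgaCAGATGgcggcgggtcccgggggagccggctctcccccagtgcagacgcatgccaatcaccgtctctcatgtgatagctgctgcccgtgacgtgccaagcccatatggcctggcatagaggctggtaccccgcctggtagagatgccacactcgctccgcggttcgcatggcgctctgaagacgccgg
SLC17A6, chr11:22338131-22338430, plus strand: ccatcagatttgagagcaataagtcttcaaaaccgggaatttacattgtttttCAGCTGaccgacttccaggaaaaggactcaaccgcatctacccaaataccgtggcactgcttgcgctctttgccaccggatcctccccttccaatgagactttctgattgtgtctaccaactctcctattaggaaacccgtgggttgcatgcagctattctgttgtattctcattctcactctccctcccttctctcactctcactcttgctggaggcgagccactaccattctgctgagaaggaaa
NEUROD2 held 1 CAGATG and SLC17A6 1 CAGCTG, and NEUROD1 held neither in this window. Of all 27305 RefSeq promoters of that length, 14.8% held CAGATG and 17.7% held CAGCTG. Of the protein-coding genes tested, 80.1% had a promoter in the table, and among those 12191 genes the shares were 9.94% and 17.3%. Among the 782 promoters found for divergence genes that ended higher in KO (82.4% of the coding genes of the class) they were 10.6% and 16%, and among the 334 of catch-up genes that began lower in KO (82.9%) they were 8.38% and 17.7%. The CCAAT box stood in 36.4% of the 12191 promoters and the cell cycle element TTTGAA in 10.2%. For the remaining classes fewer than 80% of coding genes had a promoter (72.2% to 79.1%), so no comparison is drawn there. CAGATG and CAGCTG stood in 8.41% and 23.5% of 226 promoters of genes crossing to lower KO levels. For genes diverging to lower KO levels they stood in 11.2% and 20.4% of 641. The shares were 10.6% and 19.9% of 151 for crossing to higher KO levels. Catch-up genes that began higher in KO had 11% and 17.7% of 502. Across the remaining classes TTTGAA stood in 6.64% to 13.4%.

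Notch signalling passes between neighbouring cells from Delta and Jagged ligands to Notch receptors and the HES and HEY repressors, and it holds progenitors back from differentiation. Of 24 tested Notch genes, 13 had an interaction below 0 and 2 above 0 (against 10.3% and 8.39% of all genes), with a median of -0.95, and 7 diverged towards lower KO levels. HEYL, a repressor at the end of the pathway, measured 83.4, 86.2, 60.8 and 92.2 CPM in WT at day 3 and 21.2, 31.6, 25.4 and 27.8 CPM at day 7. In KO it measured 29.6, 51.7, 37.3 and 38.4 CPM at day 3 and 0.855, 0.776, 1.08 and 1.73 CPM at day 7. It fell in both genotypes and further in KO (interaction -3.54, SE 0.33, adjusted p = 1.38e-06). The ligand DLL4 fell in KO from 74.9 ± 7.1 to 2.73 ± 0.606 CPM and in WT from 24.6 ± 3.19 to 9.91 ± 6.1 CPM (interaction -3.47), and MFNG, a glycosyltransferase that modifies Notch receptors, fell in KO from 261 ± 71.1 to 25.2 ± 17.8 CPM with no called change in WT (interaction -4.01, or -4.64 without KO day 7 replicate 4). DTX4, a ubiquitin ligase of the Deltex family, went the other way: it fell in WT from 26.4 ± 5.45 to 11 ± 5.74 CPM and rose in KO from 13.1 ± 4.68 to 246 ± 67.8 CPM (interaction 5.5, SE 0.56). The direction was thus shared by most called members and not by all.

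Pan-neuronal genes, which neurons of every kind use, were higher in KO on both days and were caught up in part on the log2 scale. In summed CPM the gap between the KO and WT means widened, from 8379 at day 3 to 15300 at day 7. Of 22 tested, 20 were called higher in KO at day 3 (27.4% of all genes were called) and 15 at day 7 (37%), and the median difference was 2.42 at day 3 and 1.20 at day 7. The interaction was below 0 for 11 and above 0 for none (10.3% and 8.39% of all genes), with a median of -1.11. Of the 11, 10 were catch-up genes. Without WT day 7 replicate 1, in which the summed CPM of the list was lowest, 14 were below 0. ELAVL3, a neuronal RNA-binding protein, measured 58.3, 71.1, 65.9 and 73.6 CPM in WT at day 3 and 208, 259, 287 and 369 CPM at day 7, against 336, 355, 355 and 290 CPM and then 245, 301, 280 and 266 CPM in KO. WT reached the KO range at day 7 and KO showed no called change (interaction -2.35, SE 0.24, adjusted p = 2.85e-06). STMN2, a regulator of microtubules in growing axons, rose in both, in WT from 61.7 ± 23.9 to 1353 ± 406 CPM and in KO from 715 ± 225 to 2632 ± 469 CPM (interaction -2.57, SE 0.44). KO stayed above WT for STMN2 at day 7 without overlap. ELAVL2, of the same family as ELAVL3, crossed: KO fell from 580 ± 94.3 to 223 ± 43.2 CPM while WT rose from 232 ± 70.7 to 506 ± 114 CPM (interaction -2.5). ELAVL4 had an interaction of -3.0, with WT rising from 10.9 ± 7.02 to 62.4 ± 21 CPM and no called change in KO (140 ± 65.4 and 99.7 ± 25.3 CPM).

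Genes of neural progenitors and of stem cells had calls in both directions (10.3% of all genes were below 0 and 8.39% above). Of 19 neural progenitor genes tested, 7 were below 0 and 2 above 0 (median -1.21, or -0.32 over all 20 members on log2(CPM + 1)). PAX6, a homeobox factor of neural progenitors, rose in WT from 2.53, 3.08, 2.05 and 1.66 CPM to 23, 13.2, 24.9 and 22 CPM and fell in KO from 4.34, 3.47, 5.73 and 3.26 CPM to 0.176, 1.03, 1.03 and 4.11 CPM (interaction -4.57, SE 0.75, adjusted p = 0.000345). KO day 7 replicate 4 was the highest of its group, and without it the interaction of PAX6 was -5.7. GLI3, a mediator of hedgehog signalling, fell in KO from 36.6 ± 14.7 to 4.15 ± 1.34 CPM with no called change in WT (interaction -2.75). Of 11 pluripotency genes tested, 4 were above 0 and 2 below, with 1 above 0 without WT day 3 replicate 4 and 2 without KO day 7 replicate 4 or WT day 7 replicate 3 or 4. LIN28A, an RNA-binding protein that blocks maturation of let-7, fell in WT from 129, 114, 147 and 199 CPM to 12.1, 24.2, 25.3 and 28.3 CPM and showed no called change in KO, at 244, 238, 216 and 334 CPM and then 296, 245, 221 and 211 CPM. The groups did not overlap on either day, and the gap widened (interaction 2.62, SE 0.34, adjusted p = 3.49e-05). DPPA4, a chromatin protein of pluripotent cells, took the opposite course, falling in KO from 55.7 ± 4.03 to 6.49 ± 3.7 CPM with no called change in WT (interaction -2.61).

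Genes of DNA replication and mitosis fell in both genotypes and were lower in KO on both days. Of 42 tested, 25 were called lower in KO at day 3, 28 at day 7 and none higher on either day (27.4% and 37% of all genes were called). The interaction was above 0 for 10, all catch-up, and below 0 for 13, all divergence, with a median of -0.34 (54.8% called, against 18.7% of all genes). This balance rested on WT day 7 replicate 1, whose summed level is given above: without it 11 were above 0 and 9 below, and the median was 0.03. On log2(TPM + 0.1) with limma only 1 was above 0 and 3 below. The 10 above 0 were MCM2, MCM4, MCM6, GINS2, PRIM1, PCNA, FEN1, RRM1, CDC6 and CHEK1, which serve DNA replication or its checkpoint and were named after their values were seen. PRIM1, a primase subunit, had an interaction of 2.24 (SE 0.31) and MCM4, part of the replicative helicase, 2.13 (SE 0.38). Of the 13 below 0, all but RRM2, a subunit of ribonucleotide reductase, and E2F1, a transcription factor of S phase entry, act in mitosis or its onset. UBE2C, a ubiquitin-conjugating enzyme of mitotic exit, measured 125, 112, 61.5 and 103 CPM in WT at day 3 and 21.1, 7.56, 1.52 and 6.18 CPM at day 7, and in KO 16.1, 37.4, 60.2 and 75.9 CPM at day 3 and 0.201, 0.15, 0.0542 and 0.119 CPM at day 7. The interaction was -4.98 (SE 0.96, adjusted p = 0.00126), although in CPM the gap was smaller at day 7. AURKB, a mitotic kinase, had -4.78, CDC20, an activator of the anaphase complex, -4.69, and CCNB2, a mitotic cyclin, -4.28. Without WT day 7 replicate 1 these were -4.19 for UBE2C, -4.06 for AURKB, -3.97 for CDC20 and -3.63 for CCNB2, and CDC20 was -5.99 without KO day 7 replicate 1. Replication-dependent histones, near-identical genes between which reads could be split, held 5 calls above 0 and 2 below among 64 tested. That share, 10.9%, was under the 18.7% of all genes. With the share of small structural RNA added as a covariate 17 were above 0, and leaving out single libraries gave from 1 (without KO day 7 replicate 1 or 3, or WT day 7 replicate 2) to 9 (without KO day 3 replicate 3).

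Synaptic genes had calls in both directions (8.39% of all genes were above 0 and 10.3% below). Of 41 postsynaptic genes tested, 15 were above 0 and 5 below (median 0.47; 13 and 5 without WT day 7 replicate 1, median 0.27), and 13 diverged to higher KO levels. Of 35 presynaptic genes, 7 were above 0 and 6 below (median -0.21). Besides GRIK1 on the postsynaptic side, GABRA3, an X-linked subunit of GABA-A receptors, rose in KO from 2.6, 1.91, 1.78 and 2.03 CPM to 31.1, 38.5, 47.1 and 13.3 CPM and showed no called change in WT, at 1.01 to 1.95 CPM and then 0.199 to 1.79 CPM (interaction 4.18, SE 0.63). CAMK2A, a calcium-dependent kinase of the postsynaptic density, measured 6.51, 5.02, 5.79 and 3.97 CPM in WT at day 3 and 5.46, 4.41, 4.47 and 2.56 CPM at day 7, and in KO 2.03, 2.1, 3.16 and 3.42 CPM and then 27.4, 31.6, 40.4 and 20 CPM (interaction 3.82, SE 0.38). GRIN2D, an NMDA receptor subunit, was an exception: it rose in WT from 22.8, 18.7, 20.4 and 16.9 CPM to 221, 199, 192 and 247 CPM and showed no called change in KO, at 89.3, 68.9, 78 and 58.3 CPM and then 60.5, 54.7, 76.5 and 69.8 CPM (interaction -3.62, SE 0.23, adjusted p = 6.25e-08). On the presynaptic side SLC17A6, the vesicular glutamate transporter whose promoter is shown above, measured 0.0703, 0.363, 0.184 and 0.198 CPM in WT at day 3 and 34.9, 70.3, 79.2 and 89.3 CPM at day 7, and in KO 9.85, 8.96, 13.7 and 3.26 CPM and then 351, 393, 340 and 261 CPM. On the log2 scale WT gained ground (interaction -3.17, SE 0.59), while in CPM the gap widened, and on log2(TPM + 1) the sign was reversed at 1.28. CPLX1, a complexin of vesicle fusion, crossed (interaction -2.58) from 93.4 ± 17.9 to 39.7 ± 1.67 CPM in KO and from 27.6 ± 5.46 to 70.2 ± 15.8 CPM in WT.

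Ion channels and axon guidance genes had interaction calls on both sides (8.39% of all genes were above 0 and 10.3% below). Of 47 channels tested, 28 were called higher and 1 lower in KO at day 3 and 33 higher and 4 lower at day 7, and of 49 guidance genes 29 were higher and 2 lower, then 28 higher and 4 lower (27.4% and 37% of all genes were called). The interaction was above 0 for 9 channels and below for 11 (median 0.26; 8 and 14 of 48 without WT day 7 replicate 1, median 0.10), and above 0 for 12 guidance genes and below for 15 (median 0.17; 13 and 17 without that library, median -0.03). KCNMA1, the large-conductance calcium-activated potassium channel, rose in KO from 3.28, 4.71, 2.65 and 2.68 CPM to 48.2, 46.5, 43.6 and 32.2 CPM, with no called change in WT at 1.58 to 2.02 CPM and then 1.08 to 5.02 CPM (interaction 2.98, SE 0.46). CACNA1C, an L-type calcium channel, did likewise, with KO at 4.17 ± 1.05 and then 29.4 ± 4.41 CPM (interaction 2.39). KCNH7, a potassium channel of the ERG family, was classed as catch-up instead. WT rose from 2.46 ± 0.6 to 56.5 ± 11 CPM and KO from 14.8 ± 4.72 to 38.6 ± 5.29 CPM (interaction -3.14, SE 0.33). The WT mean of KCNH7 thus passed the KO mean by day 7. DCC, a netrin receptor on growing axons, measured 1.9, 3.42, 4.6 and 3.92 CPM in WT at day 3 and 93.3, 246, 223 and 192 CPM at day 7, against 76.2, 118, 60.9 and 40.9 CPM and then 114, 188, 198 and 289 CPM in KO. WT reached the KO range and overlapped it at day 7 (interaction -4.36, SE 0.52, adjusted p = 1.56e-05). SEMA3C, a secreted semaphorin related to SEMA3E, moved opposite to it: it rose in WT from 3.27 ± 1.24 to 54.7 ± 8.92 CPM with no called change in KO (5.17 ± 2.09 and 7.36 ± 4.03 CPM; interaction -3.56).

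Genes of neuron subtypes were called below 0 more often than above (10.3% of all genes were below 0 and 8.39% above). Of 22 forebrain and POU3F genes tested, 11 were below 0 and 3 above 0 (median -1.56), and of 21 sensory and peripheral genes 8 were below 0 and 1 above 0 (median -1.11). ZBTB18, a transcriptional repressor that acts in cortical development, fell in KO from 431 ± 51.4 to 56.5 ± 7.62 CPM with no called change in WT (323 ± 50.3 and 296 ± 55.1 CPM, interaction -2.81, SE 0.24). LMO3, a LIM-only cofactor, was an exception, at 281, 85.4, 115 and 57.4 CPM in KO at day 7 against 0.484 to 2.18 CPM in WT at day 7 and at most 0.452 CPM in any day 3 library (interaction 5.12, SE 1.27; 5.71 without KO day 3 replicate 1 and 4.43 without KO day 7 replicate 1).

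Neuropeptide and granin genes had 6 calls above 0 and 4 below among 21 tested (4 and 5 without WT day 7 replicate 1, and 3 above 0 without KO day 3 replicate 1, KO day 7 replicate 2 or WT day 3 replicate 2 or 3). Of all genes, 8.39% were above 0 and 10.3% below. SST, the somatostatin precursor, rose in both genotypes, in WT from 0.106, 0.299, 0.643 and 0.174 CPM to 87.9, 644, 546 and 724 CPM and in KO from 3.05, 5.02, 19 and 5.78 CPM to 224, 621, 572 and 863 CPM. The groups stood apart at day 3 and overlapped at day 7 (interaction -4.57, SE 0.96; -3.79 without KO day 3 replicate 3 and -5.25 without WT day 3 replicate 3), with replicate 1 the lowest in each day 7 group. TAC1, the substance P precursor, rose in KO from 0.325 ± 0.15 to 12.3 ± 5.09 CPM with no called change in WT (interaction 4.73), as did PCSK1, a prohormone convertase, from 3.99 ± 1.45 to 42 ± 24.3 CPM (interaction 3.46).

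Metabolic genes were called above 0 far more often than below (8.39% of all genes were above 0 and 10.3% below). Of 27 genes of cholesterol and fatty acid synthesis tested, 15 were above 0 and 2 below (median 0.98), 14 of them diverging to higher KO levels. The median difference was 0.09 at day 3 and 0.94 at day 7, and 21 were called higher in KO at day 7 (37% of all genes were called). SQLE, squalene epoxidase, rose in KO from 140, 93.6, 157 and 138 CPM to 331, 282, 250 and 186 CPM with no called change in WT (interaction 1.43), and MSMO1, a sterol methyl oxidase, from 188 ± 56.8 to 356 ± 90.5 CPM (interaction 1.41). Of 20 glycolysis genes, 9 were above 0 and none below (median 1.04), all 9 by divergence, with median differences of -0.15 at day 3 and 0.85 at day 7. LDHA, lactate dehydrogenase, measured 230, 267, 264 and 265 CPM in WT at day 3, 80 to 203 CPM in WT at day 7, 175, 260, 390 and 342 CPM in KO at day 3 and 1044, 438, 751 and 527 CPM in KO at day 7 (interaction 2.15, SE 0.42, adjusted p = 0.00153). SLC2A1, the main glucose transporter of many cells, fell in WT from 36.3, 28.6, 28.1 and 23.6 CPM to 6.2, 8.72, 8.22 and 9.44 CPM and rose in KO from 30.6, 49.3, 40.6 and 22.9 CPM to 81.5, 49, 64.5 and 46.9 CPM (interaction 2.59, SE 0.33). HK2, a hexokinase, had 2.76 and PFKP, a phosphofructokinase, 2.6. Glycolytic calls numbered 9 to 11 when any 1 library was left out.

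In the respiratory chain, 6 of 76 nuclear-encoded subunits had an interaction above 0 and none below (7.89% against 18.7% of all genes), with a median of 0.43, and none of the 13 mitochondrially encoded genes was called. That count depended on the small structural RNA share, with which as a covariate 43 of the 76 were above 0, and without KO day 3 replicate 3 there were 10. NDUFB6, a complex I subunit, fell in WT from 39.6 ± 8.29 to 17.5 ± 4.05 CPM with no called change in KO (23.3 ± 6.64 and 22.8 ± 4.04 CPM; interaction 1.15, SE 0.32). Of 79 cytosolic ribosomal protein genes, 2 were below 0 and none above (1 to 4 below when single libraries were left out, 4 without KO day 3 replicate 2), with a median of -0.47 that turned to 0.14 under the same covariate. Of these 79 genes, 7 were called lower in KO at day 3 and 67 at day 7 (27.4% and 37% of all genes were called, in either direction). The median KO-WT difference was -0.72 at day 3 and -1.17 at day 7. The summed level of the list spread from 15236 to 53017 CPM in KO at day 3, against 16776 to 22281 CPM in KO at day 7. RPS27L, an isoform induced by p53, fell in KO from 81.6 ± 36.3 to 13.1 ± 1.83 CPM with no called change in WT (interaction -1.8).

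**Figure D4:**
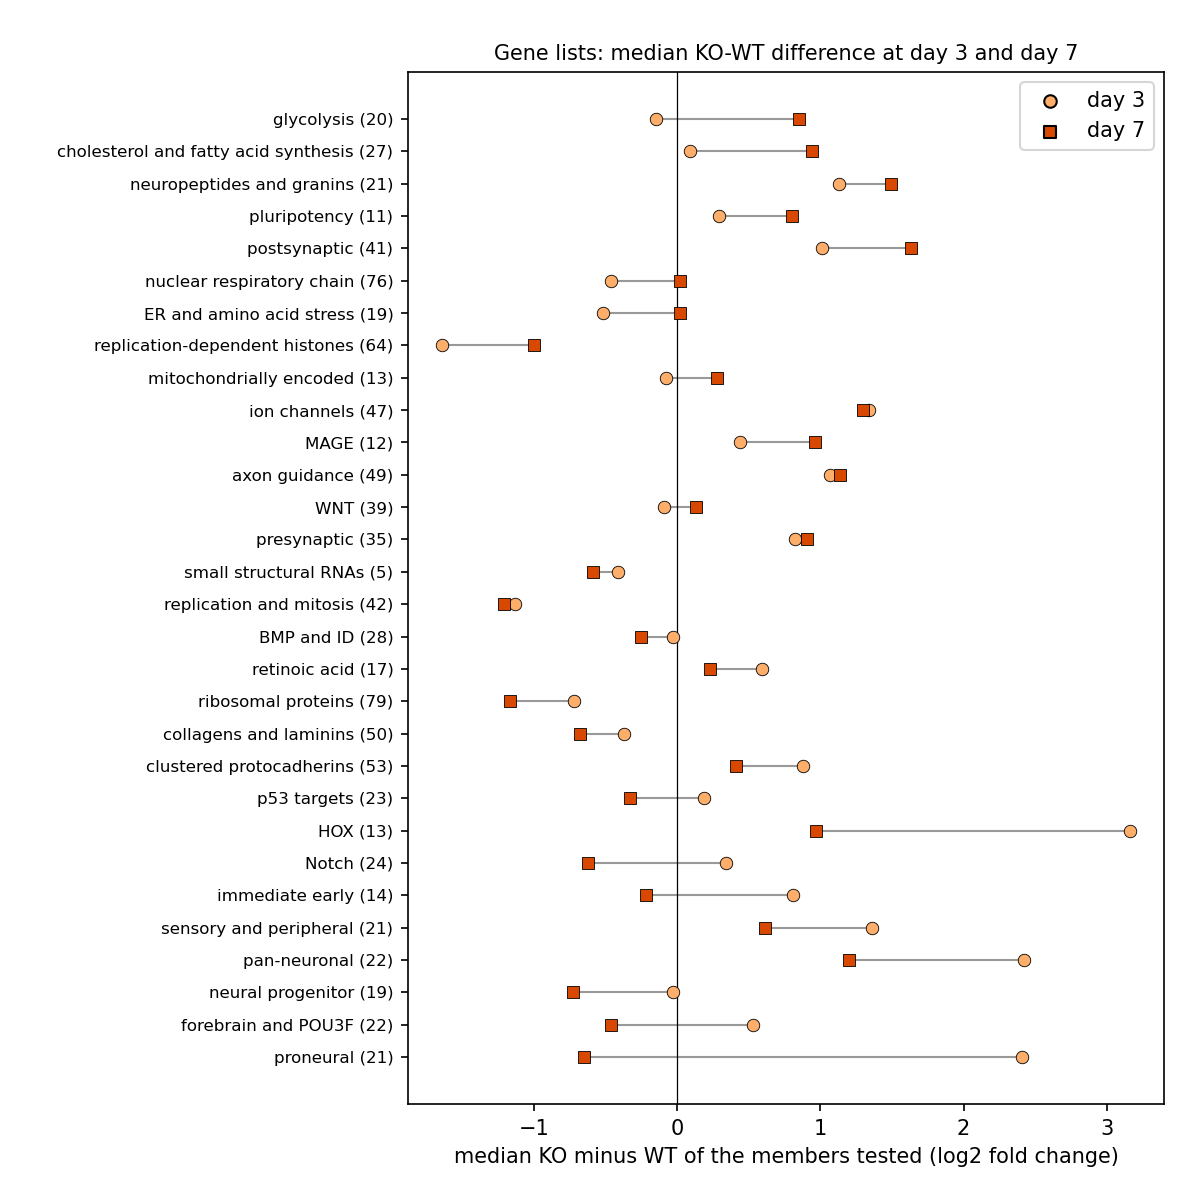
Median KO minus WT difference (log2 fold change) of the tested members of each gene list at day 3 (circles) and day 7 (squares), lists ordered by their median interaction, with the number of members tested in brackets. The proneural median passes from 2.41 to -0.65 and the pan-neuronal median from 2.42 to 1.20, while those of glycolysis and cholesterol synthesis move from near 0 to 0.85 and 0.94.

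Extracellular matrix genes were called below 0 more often than above. Of 50 collagen and laminin genes tested, 17 were below 0 and 3 above 0 (median -0.49; 18 and 5 of 51 without WT day 7 replicate 1; 10.3% and 8.39% of all genes), 11 of them diverging to lower KO levels. COL4A5, an X-linked basement membrane collagen, fell in KO from 28.6 ± 6.37 to 0.681 ± 0.493 CPM with no called change in WT (65.1 ± 5.98 and 37.3 ± 18.2 CPM; interaction -4.6, SE 0.54). COL4A1, of the same family, moved the other way, falling in WT from 36.2 ± 10.8 to 2.23 ± 1.18 CPM and in KO from 17.3 ± 9.64 to 7.65 ± 1.91 CPM (interaction 2.83). COL1A1, a fibrillar collagen, measured 210, 248, 173 and 435 CPM in WT at day 3 and 26.7, 21.4, 18.1 and 18.7 CPM at day 7, and in KO 29.9, 110, 43.6 and 165 CPM and then 0.578, 0.726, 0.0271 and 0.298 CPM. It fell in both genotypes and further in KO on the log2 scale (interaction -4.05, SE 0.75). On log2(TPM + 1) its interaction was 0.01.

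Signalling pathways had calls in both directions (8.39% of all genes were above 0 and 10.3% below). Of 39 WNT pathway genes tested, 7 were above 0 and 10 below (median -0.13), with 4 above 0 without replicate 3 of either day 7 group. SFRP1, a secreted WNT inhibitor, rose in WT from 275 ± 149 to 541 ± 208 CPM and fell in KO from 445 ± 184 to 64.4 ± 16 CPM (interaction -3.77), NOTUM, an enzyme that inactivates WNT ligands, fell in KO from 10.7 ± 5.52 to 0.527 ± 0.252 CPM (interaction -4.59, or -3.95 without WT day 7 replicate 1), and the receptor FZD8 rose in KO from 9.29 ± 2.12 to 44.4 ± 24.2 CPM and fell in WT (interaction 3.53). SFRP2, an inhibitor related to SFRP1, was above 0 (interaction 3.24, SE 0.97), a call lost when any 1 of 5 libraries was left out (KO day 7 replicate 3 or 4, WT day 3 replicate 4, WT day 7 replicate 3 or 4). Of 28 BMP and ID genes, 3 were above 0 and 5 below (28.6% called, against 18.7% of all genes). Besides BMP3, the BMP antagonist CHRD fell in both genotypes and further in WT, from 92.9 ± 21.5 to 13.9 ± 2.69 CPM against 31.4 ± 6.64 to 14.7 ± 3.36 CPM in KO (interaction 1.64). Of 17 retinoic acid genes, 2 were above 0 and 1 below, a share of 17.6% near that of all genes, and none of 13 HOX genes tested was called, with a median of -0.87 that ranged from -2.2 to 0.24 when single libraries were left out; 4 were below 0 without KO day 7 replicate 1. CRABP2, a retinoic acid carrier, rose in KO from 4.32 ± 4.25 to 92.5 ± 21.5 CPM with no called change in WT (interaction 3.37; 4.27 without KO day 3 replicate 4 and 2.51 without WT day 3 replicate 4).

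Among stress and activity genes, 5 of 23 p53 targets and 6 of 14 immediate early genes were below 0, with none above 0, and 5 of 19 ER and amino acid stress genes were above 0 with none below (10.3% of all genes were below 0 and 8.39% above). The share of p53 targets called, 21.7%, was near the 18.7% of all genes. PMAIP1, a BH3-only protein that promotes cell death, fell in KO from 8.5 ± 2.61 to 0.796 ± 0.374 CPM with no called change in WT (interaction -2.34, or -1.74 without WT day 7 replicate 1). ARC, an activity-induced synaptic gene, rose in WT from 1.59 ± 0.799 to 6.58 ± 2.16 CPM and fell in KO from 16.7 ± 5.33 to 7.58 ± 2.51 CPM (interaction -3.2), and BTG2, an antiproliferative gene, fell in KO from 181 ± 40.2 to 34.3 ± 7.11 CPM while it rose in WT (interaction -2.92). ASNS, asparagine synthetase, fell in WT from 139 ± 16 to 62 ± 16.4 CPM and rose in KO from 73.2 ± 18.8 to 115 ± 27.7 CPM (interaction 1.82). Of 53 clustered protocadherins, which give neurons a surface identity, 3 were above 0 and 1 below (7.55% called), or 8 below without KO day 3 replicate 4. PCDHGC4, whose annotated gene overlaps others of its cluster, rose in KO from 16.3 ± 5.34 to 166 ± 46.2 CPM with no called change in WT (interaction 2.79). Of 12 MAGE family genes, MAGED1 (0.95) and NDN (0.97) were above 0 and none was below, a share of 16.7% near the 18.7% of all genes. None of the 5 small structural RNAs was called.

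**Figure D5:**
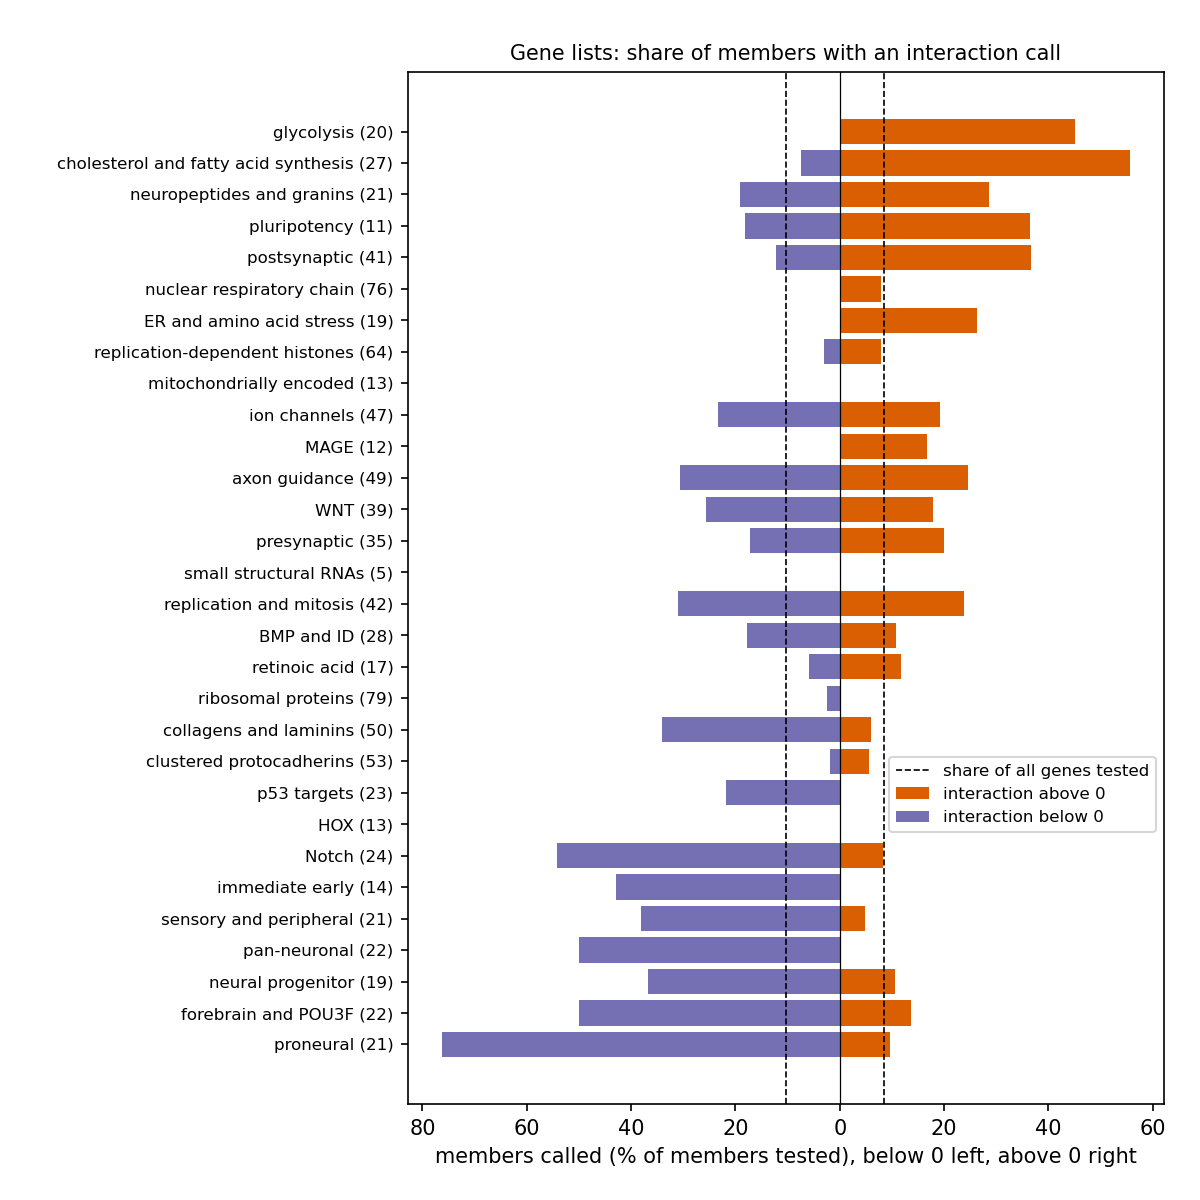
Share of the tested members with an interaction call, for each gene list other than the markers of other cell types, in % of members tested: below 0 to the left and above 0 to the right, with dashed lines at the shares of all genes tested (10.3% and 8.39%). The proneural list (16 of 21) reaches furthest to the left and cholesterol and fatty acid synthesis furthest to the right (15 of 27).

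Markers of cell types other than neurons were measured beside these groups, and their part in the results was not tested. Of all genes, 18.7% were called, 10.3% below 0 and 8.39% above. The 11 mesenchymal markers summed to 244 to 576 CPM in WT at day 3, 40.2 to 61.6 CPM in WT at day 7, 72.1 to 267 CPM in KO at day 3 and 6.68 to 9.01 CPM in KO at day 7. Of 7 tested, 4 were below 0, COL1A1 and COL1A2 among them. COL1A1, COL1A2 and COL3A1 also belong to the collagen list, so the lists are not separate observations. The 9 muscle markers summed to 48 to 75.2 and 63.3 to 98.8 CPM in WT and to 98.9 to 203 and 22.7 to 37.6 CPM in KO at days 3 and 7, with 5 of 6 tested below 0, 1 above 0 and MYF5 at the floor in all 16 libraries. ACTC1, cardiac actin, measured 14.5, 24.7, 33.5 and 42.7 CPM in WT at day 3, 44.1, 16.2, 21.6 and 28.4 CPM in WT at day 7, 88.3, 52.7, 71.3 and 174 CPM in KO at day 3 and 1.51, 0.926, 0.434 and 1.67 CPM in KO at day 7 (interaction -6.35, SE 0.64). It was in KO the highest of all groups at day 3 and the lowest at day 7. The 6 endothelial markers summed to at most 53.1 CPM in any library, with 3 of 6 below 0, among them CLDN5, a tight junction protein (interaction -5.73). The 13 glial markers summed to 98.4 to 361 CPM across the 16 libraries, with 2 of 12 tested below 0 (5 without WT day 7 replicate 1, 4 without WT day 3 replicate 4, and 1 without several of the others) and 1 above 0. The share of glial markers called was 25%, near the 18.7% of all genes. PDGFRA, a receptor of oligodendrocyte precursors and mesenchyme, fell in KO from 60.7 ± 15.8 to 2.24 ± 1.34 CPM with no called change in WT (interaction -4.46). The 9 neural crest markers summed to 7.24 to 35.1 CPM, with 2 below 0, among them SNAI2 (interaction -3.17), and 1 above 0. The 12 mesendoderm markers summed to 1.97 to 73.7 CPM, with TBXT, SOX17 and FOXA2 at the floor in all 16 libraries and none of 4 tested called.

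The classes also differed in gene length and in the share of genes on chromosome X. Among protein-coding genes the median length of the annotated gene was 33.5 kb over all tested, 60.9 kb for the 949 that diverged to higher KO levels and 50.3 kb for the 652 that began higher in KO and were caught up, against 28.8 kb for the 827 that diverged to lower KO levels and 27 kb for the 403 that began lower and were caught up. The crossing classes had nearly equal medians, 42 kb for those ending higher in KO and 42.3 kb for those ending lower. Genes on chromosome X made up 3.39% of all annotated genes tested, 6.12% of those diverging to higher KO levels and 7.91% of those crossing to higher KO levels, against 2.13% and 1.93% of those diverging or crossing to lower KO levels. Called genes had a median of 23.6 CPM in their highest group, against 10.7 CPM over all tested genes, calls included. Genes with more counts are more easily called, so this level is not independent of the test. These figures are descriptions of the classes, with no test.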

How the data were processed

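Bulk RNA was measured in H9 cells by paired-end sequencing of 151 bp after ribosomal RNA depletion, per the labels' protocols. Trimming with cutadapt 4.8, checks with FastQC 0.11.8 and MultiQC 1.20, alignment with STAR 2.7.8a and quantification with RSEM 1.3.3 on GRCh38 are named in the submitters' processing notes. The annotation and strand setting are not given in the sources used here. The authors deposited expected counts, which are whole numbers in the file, and TPM. The 4 features that are not genes took at most 0.0171% of a library and were left out.

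The expected counts of 16 libraries, grouped by sample title, were filtered with filterByExpr, scaled by TMM and tested with edgeR 4.0.16 (R 4.3.3, quasi-likelihood F test, 1 coefficient per group, Benjamini-Hochberg adjustment over 22749 genes, threshold 0.05). CPM are TMM-scaled and are compared only within a gene. Catch-up, divergence and crossing were assigned from the differences of the same fit. Total counts per library ran from about 33258000 to 51337000, and a group with at most 3 counts in every library was treated as at the floor. The scripts were tested on simulated data. Alternatives were DESeq2 1.42.0, other scalings and filters, all 36 libraries, a replicate block, a covariate, limma 3.58.1 on log2(TPM + 1) and log2(TPM + 0.1), and each library left out. Named genes were RAI1 and its partners, the 5 largest interactions in each catch-up and divergence class and the 3 largest in each crossing direction (at least 5 CPM in the highest group, no group at the floor), the 3 most abundant floor genes per direction, and up to 4 called members of each list (up to 2 for other cell types) by interaction size. NEUROG2 was added after its values were seen. The comparison, its classes and the gene lists were chosen with earlier results of these data known. Gene positions and biotypes follow GENCODE 29 on GRCh38. A few genes that this rule names are not reported here.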

Additional observations from a re-analysis of the deposited data

Results flagged for a closer look

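The change from day 3 to day 7 differed between KO and WT, by the interaction test itself, in the 4243 genes described above. Within groups of 4 libraries, Dixon's test at its 95% critical value was applied to 416 groups of values of the genes named and of the library summaries. It marked 32 where 20.8 would be marked by chance, since chance marks about 1 group in 20, and no explanation was tested. KO day 3 replicate 1 stood apart in CPM for ADAMTS5 at 26.8 and CCDC69 at 5.99. KO day 3 replicate 2 stood apart in CPM for PROM1 at 16.9 and TCF20 at 194. KO day 3 replicate 3 stood apart in CPM for CLDN5 at 46.3 and SST at 19. KO day 3 replicate 4 stood apart in CPM for RAB37 at 6.2. KO day 7 replicate 1 stood apart in CPM for ADAMTS5 at 2.54, BMPER at 13.7, CRABP2 at 60.3, LRRC53 at 0.453 and PCSK1 at 78.5. KO day 7 replicate 2 stood apart in CPM for NOTUM at 0.15 and POU4F2 at 33.7. KO day 7 replicate 3 stood apart in CPM for TBC1D3G at 0.108. KO day 7 replicate 4 stood apart in CPM for E2F2 at 0.0596, SUPT20HL2 at 0.119 and TMTC1 at 34.4. WT day 3 replicate 1 stood apart in CPM for CPLX1 at 35.7 and LDHA at 230. WT day 3 replicate 3 stood apart in CPM for NDUFB6 at 52. WT day 3 replicate 4 stood apart in CPM for TRIM14 at 18.5. WT day 7 replicate 1 stood apart in CPM for E2F2 at 1.68, ELAVL2 at 675, KCNH7 at 72.8, PBK at 4.72 and RPS27L at 104. WT day 7 replicate 2 stood apart in CPM for LRRC53 at 25.1. WT day 7 replicate 3 stood apart in CPM for DBX1 at 8.03 and MFNG at 280. WT day 3 replicate 1 also had the largest total of its group, 51.3 in units of 1e6 counts, and KO day 7 replicate 4 the lowest summed level of pan-neuronal genes, 24863 CPM.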

How the results depend on the processing

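The 4243 calls became 3518 to 4581 when single libraries were left out, with 1442 to 2027 above 0, 2071 to 2554 below 0, 934 to 1734 catch-up, 1769 to 2270 divergence and 461 to 669 crossing; the lowest total was without KO day 7 replicate 3 and the highest without KO day 3 replicate 4. With limma on log2(TPM + 0.1) there were 1458 calls (763 above 0, 695 below, 387 catch-up, 882 divergence, 118 crossing), and on log2(TPM + 1) there were 1366 (855, 511, 350, 879 and 58). The share above 0 was then 52.3% and 62.6%, against 45%, and 1175 and 1007 genes were called in both with the same sign. An edgeR test against a fold of 1.5 called 2425. DESeq2 called 5016, DESeq2 size factors gave 4235, library size alone 4032, no filter 3883, all 36 libraries 4588 and the small structural RNA covariate 5462. Of 3550 values for 142 named genes across settings, 3366 kept direction and side of the threshold, 158 lost the call and 26 changed sign; the cause was not tested. On log2(TPM + 1) these were PBK 0.39, E2F2 0.23, PROM1 -0.37, SLC17A6 1.28, POU4F2 1.01, ADCYAP1 1.81 and COL1A1 0.01, and on log2(TPM + 0.1) E2F2 0.08, POU4F2 0.35 and ADCYAP1 0.65. Among genes with no call, NEUROG2 was -0.06 with all 36 libraries, -0.02 with library size alone and -0.00 with no filter, and ranged from -0.16 to 0.21 without single libraries, and PHF14 from -0.13 to 0.06.

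Same-numbered replicates did not deviate together in every pair (correlations from -0.2238 to 0.4268), so the numbers were not treated as pairs. Between KO and WT at day 3, however, each correlation was above 0 (0.1261, 0.3335, 0.0484 and 0.4268 for replicates 1 to 4). A shared replicate structure at day 3 is therefore not excluded. The fit with a replicate block called 4335 genes, 4006 of them among the 4243.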
